A study of Mus musculus with 73 samples.

Results

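The transcripts of 7 genes that encode replacement histones or histone variants were followed in 8 RNA-seq libraries of mouse embryos. The genes were taken by name: H3f3a and H3f3b, which encode the same H3.3 protein, Cenpa, H2az1, H2ax, H1f0 and H1f8. They are 7 of the 25220 gene symbols with a value in every library, and all 7 passed the filter on low values in each comparison. The series holds 73 samples on the H3.3 landscape of the early embryo, of which the 8 RNA-seq libraries were used and the other 65 were not analysed here. Embryos of the hybrid C57BL/6 / C3H strain were cultured in KSOM, a medium for preimplantation embryos, and total RNA was made into libraries with a stranded SMART-seq kit. There were 3 libraries of p150DN 8-cell embryos, 2 of EGFP blastocysts and 3 of EGFP 8-cell embryos. p150 is the large subunit of the chromatin assembly factor CAF-1, which places H3-H4 on newly copied DNA, the name p150DN points to a dominant negative p150, and the fluorescent protein EGFP marks the control embryos of both stages. The labels used here do not say how p150DN or EGFP was introduced, how many embryos made 1 library, or whether replicates are independent cultures or litters. The p-values therefore rest on library-to-library spread alone, which may be technical.

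Most histone genes are read only while DNA is copied, and their messages end in a stem-loop without a poly(A) tail. Replacement histones are not limited to the time of DNA copying, come from polyadenylated messages and can enter chromatin outside replication. H3.3 does so through the HIRA complex and through DAXX with ATRX, and CENP-A through HJURP at centromeres. H2A.Z does so through the SRCAP and p400 complexes at promoters. H2A.X is the variant that is phosphorylated around DNA breaks, and its gene gives both kinds of message. H1f0 encodes H1.0, the linker histone typical of differentiated and slowly dividing cells, and H1f8 encodes the linker histone of the oocyte, which the early embryo inherits and then replaces.

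The promoters of 4 members are shown. H3f3a and H3f3b are separate genes for 1 protein, and H3f3b over H3f3a averaged lower in p150DN 8-cell libraries than in the other groups. That ratio was not tested, and its blastocyst values lay within the EGFP 8-cell range. Cenpa and H2az1 were the members called higher in both p150DN 8-cell embryos and blastocysts than in EGFP 8-cell embryos. Their p150DN calls depended on the scaling between libraries. Each sequence is from RefSeq (GRCm38.p6, the assembly of mm10) and runs 5′ to 3′ along the gene's strand, with 250 bases before and 50 bases after the transcript start that the table uses. Capitals mark matches on either strand to the CCAAT box (CCAAT), the TATA box (TATAAA), the GC box (GGGCGG), the octamer (ATGCAAAT) and the core of cell cycle homology regions (TTTGAA). These letters were chosen after the sequences were seen. Overlapping matches run together. The H3f3b window lies wholly inside that gene's annotated span (chr11:116021961-116026039), so the start used for it is not the outermost annotated one. The regions are chr1:180813556-180813855 on the minus strand for H3f3a, chr11:116024455-116024754 on the minus strand for H3f3b, chr5:30666636-30666935 on the plus strand for Cenpa and chr3:137864237-137864536 on the plus strand for H2az1.
H3f3a: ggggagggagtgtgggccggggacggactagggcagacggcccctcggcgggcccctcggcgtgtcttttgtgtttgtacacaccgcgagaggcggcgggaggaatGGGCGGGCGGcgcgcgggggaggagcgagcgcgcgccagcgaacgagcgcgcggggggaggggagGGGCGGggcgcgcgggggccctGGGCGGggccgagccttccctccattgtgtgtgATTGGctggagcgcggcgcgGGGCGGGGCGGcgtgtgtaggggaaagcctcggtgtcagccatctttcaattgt
H3f3b: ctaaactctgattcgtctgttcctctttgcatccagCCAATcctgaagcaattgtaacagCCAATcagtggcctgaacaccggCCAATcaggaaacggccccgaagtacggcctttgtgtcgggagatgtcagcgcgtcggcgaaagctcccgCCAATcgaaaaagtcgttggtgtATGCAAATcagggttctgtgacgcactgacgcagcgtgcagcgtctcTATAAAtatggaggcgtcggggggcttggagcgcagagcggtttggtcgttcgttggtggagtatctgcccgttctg
Cenpa: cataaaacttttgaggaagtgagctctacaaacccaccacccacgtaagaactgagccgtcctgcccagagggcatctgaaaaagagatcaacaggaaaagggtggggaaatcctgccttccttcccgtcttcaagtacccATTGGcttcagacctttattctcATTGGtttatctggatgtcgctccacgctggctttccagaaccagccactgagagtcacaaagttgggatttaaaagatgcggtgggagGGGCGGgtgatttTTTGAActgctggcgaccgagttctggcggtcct
H2az1: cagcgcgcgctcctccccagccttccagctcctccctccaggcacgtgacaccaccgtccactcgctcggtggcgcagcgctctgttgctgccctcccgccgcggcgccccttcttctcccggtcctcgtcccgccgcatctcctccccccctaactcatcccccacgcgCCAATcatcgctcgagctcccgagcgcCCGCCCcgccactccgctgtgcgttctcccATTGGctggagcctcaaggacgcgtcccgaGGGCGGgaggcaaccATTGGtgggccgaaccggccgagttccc
Both H3.3 promoter windows held more CG dinucleotides than the median promoter, and both held CCAAT. The H3f3a window held 39 CG dinucleotides and 74% G or C, with 6 GC boxes, 1 CCAAT and no TATAAA. The H3f3b window held 24 CG dinucleotides and 55% G or C, with no GC box, 4 CCAAT at positions -214, -190, -167 and -97 from the start, TATAAA at -27 and the octamer at -74. Of the 32851 promoters in the table, 35.7% held GGGCGG, 37.4% CCAAT, 13.6% TATAAA and 1.74% ATGCAAAT, and the median promoter held 7 CG dinucleotides. The Cenpa window had 10 CG dinucleotides, 2 CCAAT, 1 GC box and 1 TTTGAA, a run found in 17.9% of promoters. The H2az1 window had 34 CG dinucleotides, 3 CCAAT and 2 GC boxes. A match describes these letters only, and factor binding was not measured here. H1f0 and H1f8 also matched the table (29 and 5 CG dinucleotides), and H2ax is named only.

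The 7 genes lie on 7 chromosomes and no other RefSeq gene overlaps them. Libraries held 16578221 to 22488477 counted fragments, and the members rested on 43 (H1f8 in a blastocyst library) to 16346 fragments (H3f3b) per library, so counting error was at most 15.2% for H1f8, 5.21% for H1f0 and 3.19% for the others. Genes above 0 FPKM numbered 18412 to 21282 in p150DN 8-cell, 18547 to 18991 in blastocyst and 17310 to 18402 in EGFP 8-cell libraries. FPKM counts fragments per kilobase of gene length after libraries are brought to 1 common total. Chaf1a, the gene of p150, had 165, 254 and 238 FPKM in p150DN 8-cell, 26.5 and 27.2 FPKM in blastocyst and 27.7, 30.2 and 28.8 FPKM in EGFP 8-cell libraries. Each p150DN library stood above all others, and these values do not separate the embryo's own gene from an introduced p150 sequence. Trophectoderm marker genes (8, the outer layer of the blastocyst) summed to 389 to 598 FPKM in p150DN 8-cell, 1163 to 1225 FPKM in blastocyst and 245 to 270 FPKM in EGFP 8-cell libraries. Inner cell mass markers (6) summed to 551 to 780 FPKM in p150DN 8-cell, 872 to 928 FPKM in blastocyst and 473 to 635 FPKM in EGFP 8-cell libraries. Primitive endoderm markers (6) summed to 181 to 236 FPKM in p150DN 8-cell, 272 to 283 FPKM in blastocyst and 139 to 198 FPKM in EGFP 8-cell libraries. Markers of cumulus and granulosa cells (9) summed to at most 1.54 FPKM in any library, with none at a mean of 1 FPKM in a group. Fibroblast markers (6) summed to 1.16 to 3.92 FPKM in p150DN 8-cell, 0.824 to 0.861 FPKM in blastocyst and 0.266 to 0.61 FPKM in EGFP 8-cell libraries. The sample numbers of the run, per the labels, put p150DN replicate 1 among the 8-cell controls and replicates 2 and 3 after the blastocysts.

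Of the members, H3f3b had the highest level in all 3 groups. Mean levels in p150DN 8-cell embryos were 248 FPKM for H3f3b, 162 for H2ax, 143 for H2az1, 135 for H3f3a, 50.7 for Cenpa, 18.4 for H1f0 and 8.28 for H1f8. The libraries of H2ax, H2az1 and H3f3a overlapped between neighbours in that order. In EGFP blastocysts the means were 272 FPKM for H3f3b, 239 for H2ax, 175 for H2az1, 110 for H3f3a, 55.9 for Cenpa, 15.2 for H1f0 and 1.92 for H1f8, with no overlap between neighbours. In EGFP 8-cell embryos the order was H3f3b (341 FPKM), H2ax (169), H3f3a (124), H2az1 (98.9), Cenpa (33.4), H1f8 (13) and H1f0 (10.3), and the last pair overlapped. The oocyte linker gene H1f8 was thus below H1f0 in each p150DN and blastocyst library, and above it in each EGFP 8-cell library.

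**Figure D1:**
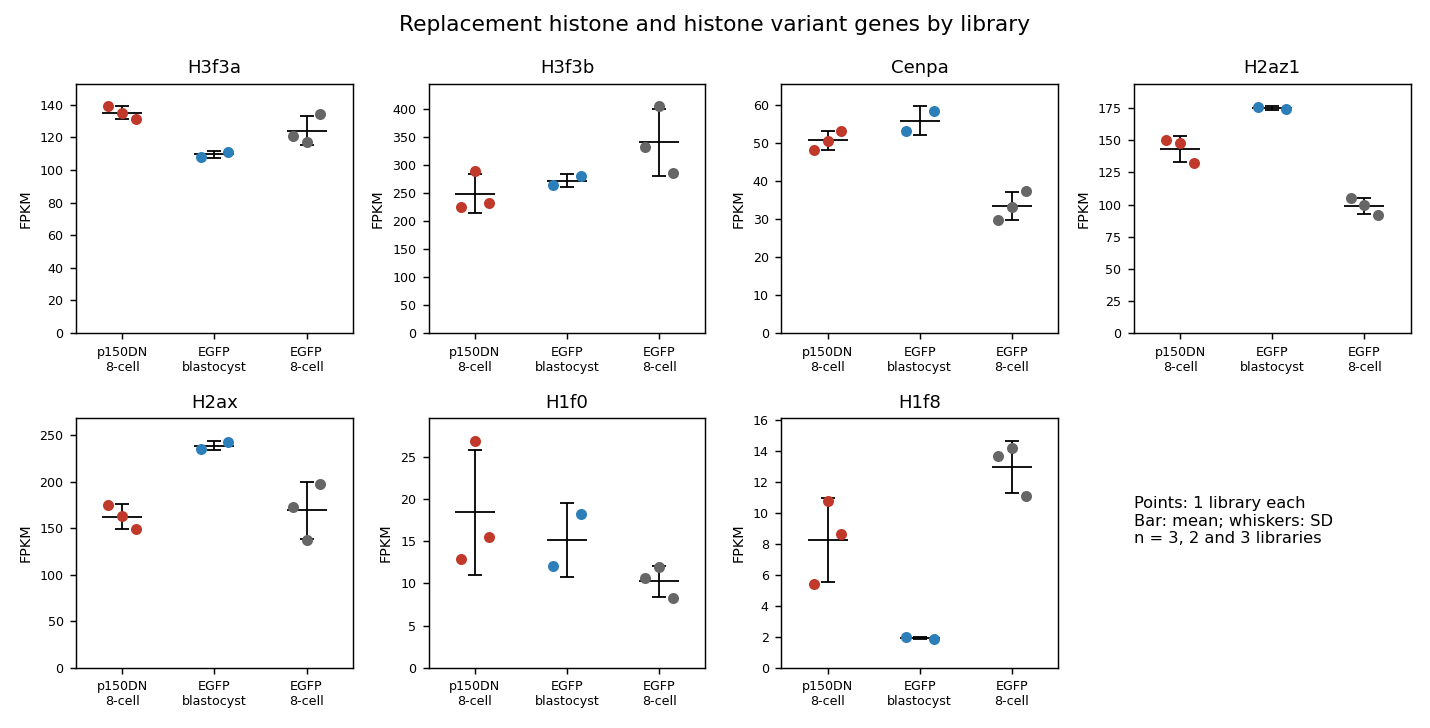
FPKM (vertical axis, starting at 0) of each member gene in p150DN 8-cell, EGFP blastocyst and EGFP 8-cell embryos; each point is 1 library, the bar is the mean and the whiskers are the SD. Cenpa and H2az1 lie higher in the p150DN and blastocyst libraries than in EGFP 8-cell libraries, and H1f8 is at 1.96 and 1.88 FPKM in the blastocyst libraries.

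Setting p150DN against EGFP embryos of the same stage asks how these transcripts differ when the dominant negative CAF-1 subunit is present. Cenpa and H2az1 were higher in p150DN embryos, and the other 5 members did not pass the test. That is 2 of 7 members (28.6%), against 34.3% of all 11730 tested genes (limma on log2(FPKM + 1), Benjamini-Hochberg adjusted p below 0.05, used throughout). Both were higher, as were 24.6% of all tested genes, and no member was lower by limma, where 9.68% of tested genes were, although H3f3b and H1f8 had lower values with an unadjusted p below 0.05. The libraries of 4 of 7 members did not overlap between the groups, against 49.8% of all tested genes. These shares are close to those of all tested genes. All tested genes had a median log2 fold change of 0.19 (2887 higher and 1136 lower), against -0.06 after median-of-ratios scaling (1753 higher and 2239 lower) and -0.03 after quantile normalization (1779 and 1833), and the median of the 7 members was 0.12. The called members also depended on scaling. After median-of-ratios scaling the 2 called members were H3f3b and H1f8, both lower (limma adjusted p = 0.0102 and 0.0103). Cenpa (adjusted p = 0.125) and H2az1 (0.271) did not pass under that scaling. In bulk libraries a change in the number of cells of a type and a change in RNA per cell cannot be told apart.

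The comparison of EGFP blastocysts with EGFP 8-cell embryos gives the course of the same genes in control development, and it uses the same EGFP 8-cell libraries. Here 4 of 7 members passed (57.1%), against 67.5% of 12199 tested genes: Cenpa, H2az1 and H2ax were higher in blastocysts, as were 42.6% of all tested genes, and H1f8 was lower, as were 24.9%. All 7 members had libraries that did not overlap, against 79.6% of all tested genes. The median of all tested genes was 0.28 (5198 higher and 3038 lower), against 0.09 after median-of-ratios scaling (4289 and 3751) and 0.03 after quantile normalization (4027 and 3866). The third comparison sets p150DN 8-cell embryos against EGFP blastocysts. Stage and p150DN both differ in it, and no p150DN blastocysts were sequenced, so their parts cannot be told apart. H1f8 was higher and H2ax lower in p150DN embryos, 2 of 7 members against 26.1% of 12648 tested genes (11.9% higher, 14.2% lower), and 4 of 7 did not overlap, against 61% of tested genes. It rests on 2 blastocyst libraries: without either of them limma called 0 of 7 members, 2 of which had an unadjusted p below 0.05.

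**Figure D2:**
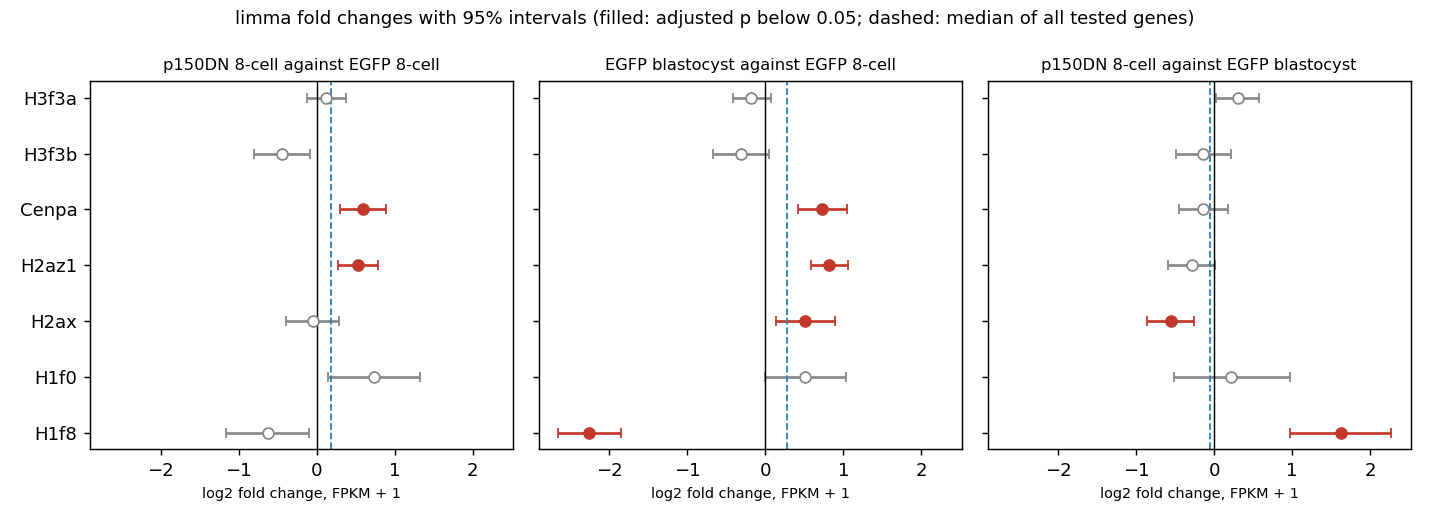
Log2 fold change of FPKM + 1 (horizontal axis) for each member in the 3 comparisons, with 95% intervals from limma; filled points passed an adjusted p of 0.05 and the dashed line is the median of all tested genes. Cenpa is at 0.60 and 0.73 and H2az1 at 0.53 and 0.82 in p150DN 8-cell embryos and in blastocysts, each against EGFP 8-cell embryos.

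H3f3a (chr1:180802560-180813605) had 139, 135 and 131 FPKM in p150DN 8-cell, 108 and 111 FPKM in blastocyst and 121, 117 and 134 FPKM in EGFP 8-cell libraries. The p150DN and EGFP 8-cell libraries overlapped, and the blastocyst libraries lay below both. The log2 fold change in p150DN 8-cell embryos was 0.12 ± 0.11 (SE; 95% interval -0.12 to 0.37; limma adjusted p = 0.406), and after median-of-ratios scaling it turned to -0.17. In blastocysts against EGFP 8-cell embryos it was -0.18 ± 0.10 (adjusted p = 0.162), and it passed after median-of-ratios scaling (-0.41, adjusted p = 0.0134).

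H3f3b (chr11:116021961-116026039), the second H3.3 gene, had 225, 289 and 232 FPKM in p150DN 8-cell, 264 and 280 FPKM in blastocyst and 332, 405 and 286 FPKM in EGFP 8-cell libraries. Its highest p150DN library stood just above its lowest EGFP 8-cell library, and the blastocyst libraries lay below all EGFP 8-cell libraries. The log2 fold change in p150DN embryos was -0.45 ± 0.16 (95% interval -0.81 to -0.09) and missed the threshold (limma adjusted p = 0.0542). It passed in 6 of 17 alternative settings, whose adjusted p ran between 0.0102 (median-of-ratios scaling) and 0.163, among them without p150DN replicate 2 (-0.56, adjusted p = 0.0284) and without EGFP 8-cell replicate 3 (-0.57, adjusted p = 0.0354), and its smallest size was -0.32, without EGFP 8-cell replicate 2 (adjusted p = 0.163). In blastocysts the log2 fold change was -0.31 ± 0.15 (adjusted p = 0.106), and it passed after median-of-ratios scaling (-0.54, adjusted p = 0.017). Leaving out 1 library at a time moved it between -0.43 without EGFP 8-cell replicate 3 (adjusted p = 0.0248) and -0.18 without EGFP 8-cell replicate 2 (adjusted p = 0.186).

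The balance between the H3.3 genes does not depend on scaling between libraries. H3f3b stood over H3f3a by a ratio of 1.61, 2.13 and 1.77 in p150DN 8-cell, 2.44 and 2.53 in blastocyst and 2.74, 3.46 and 2.13 in EGFP 8-cell libraries. The p150DN libraries were at or below the lowest EGFP 8-cell library, and below both blastocyst libraries. Together the pair had 364, 424 and 363 FPKM in p150DN 8-cell, 372 and 391 FPKM in blastocyst and 454, 523 and 420 FPKM in EGFP 8-cell libraries, where p150DN replicate 2 overlapped the EGFP 8-cell libraries. The 12 replication-dependent H3 genes summed to 623, 408 and 354 FPKM in p150DN 8-cell, 782 and 850 FPKM in blastocyst and 763, 623 and 787 FPKM in EGFP 8-cell libraries. Of the FPKM of the pair and these 12 genes, the pair thus made up 36.9, 51 and 50.6% in p150DN 8-cell libraries. It made up 32.2 and 31.5% in blastocyst and 37.3, 45.6 and 34.8% in EGFP 8-cell libraries. On that share p150DN replicates 2 and 3 lay above every other library, while p150DN replicate 1 lay among the EGFP 8-cell libraries. Its total leaves out H3f4 and Cenpa. H3f4 had 13.1, 36.7 and 43.8 FPKM in p150DN 8-cell, 20.4 and 23.6 in blastocyst and 5.46, 9.66 and 3.21 in EGFP 8-cell libraries. These ratios are given without a test, and how evenly the kit captures polyadenylated and stem-loop messages was not tested. H3f3c, a near copy on chromosome 2 that was picked after the values were seen, had 4.17 to 6.01 FPKM in p150DN 8-cell, 4.85 and 5.93 FPKM in blastocyst and 3.7 to 4.64 FPKM in EGFP 8-cell libraries. H3f3a and H3f3b are uncertain to the extent that the counting split reads with such copies.

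**Figure D3:**
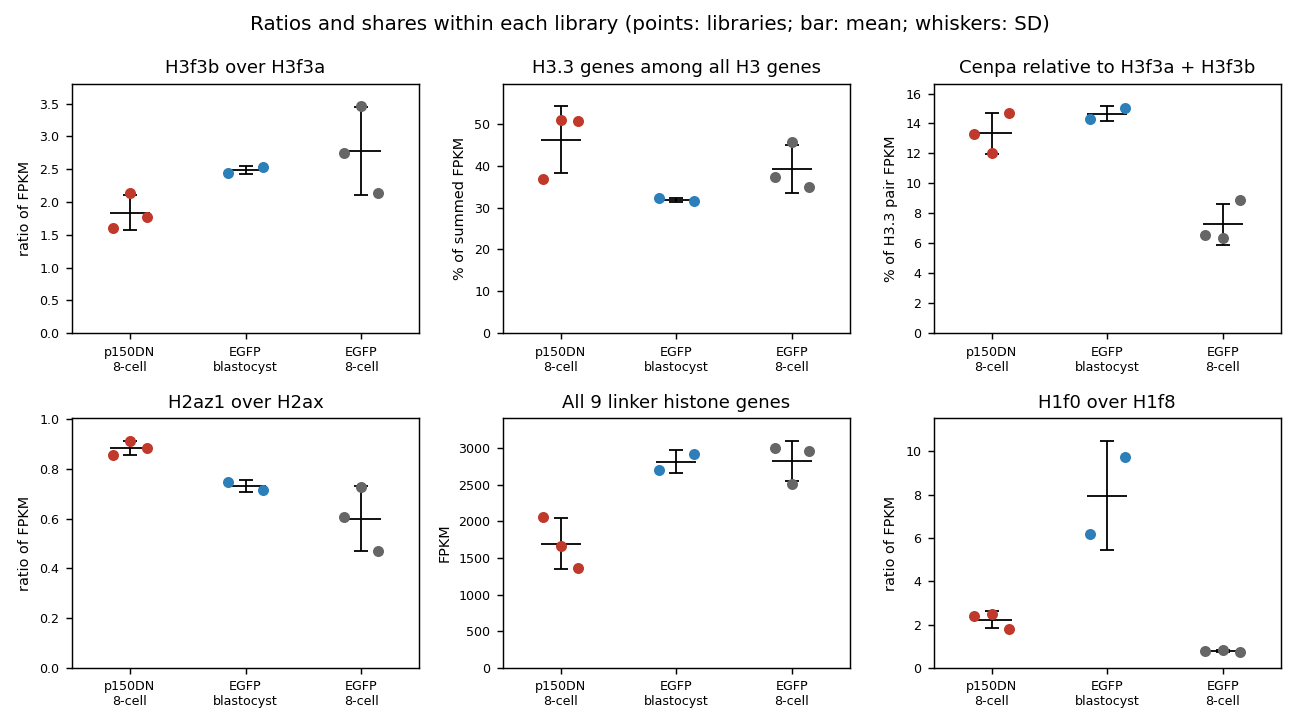
Ratios, shares and sums of FPKM within each library (vertical axes start at 0) in p150DN 8-cell, EGFP blastocyst and EGFP 8-cell embryos; points are libraries, bars means and whiskers SD. H3f3b over H3f3a averages 1.84 in p150DN 8-cell, 2.48 in blastocyst and 2.77 in EGFP 8-cell libraries. H1f0 over H1f8 averages 2.22 in p150DN 8-cell, 7.96 in blastocyst and 0.786 in EGFP 8-cell libraries. All H3 genes stands for the pair and the 12 replication-dependent H3 genes.

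Cenpa (chr5:30666877-30674837) encodes the H3 variant that marks centromeres. It had 48.2, 50.7 and 53.3 FPKM in p150DN 8-cell, 53.2 and 58.6 FPKM in blastocyst and 29.8, 33.1 and 37.3 FPKM in EGFP 8-cell libraries. Every p150DN and blastocyst library lay above every EGFP 8-cell library. The mean was 50.7 ± 2.51 FPKM in p150DN embryos, against 33.4 ± 3.75 FPKM in EGFP 8-cell embryos (n = 3 each, SD), a log2 fold change of 0.60 ± 0.13 (95% interval 0.30 to 0.89; limma adjusted p = 0.00868), 0.40 above the median of all tested genes. The call held without each library in turn (adjusted p 0.0134 to 0.0456) and under quantile normalization, but not after median-of-ratios scaling (0.31, adjusted p = 0.125) nor with p150DN replicates 2 and 3 left out together (0.52, adjusted p = 0.0813). Blastocysts were higher than EGFP 8-cell embryos by 0.73 ± 0.13 (adjusted p = 0.00228), a call kept in all 15 alternatives. Between p150DN 8-cell embryos and blastocysts the difference was -0.14 (95% interval -0.45 to 0.18; adjusted p = 0.463). As a percent of the FPKM of the H3.3 pair, a ratio chosen after the values were seen, Cenpa stood at 13.3, 12 and 14.7% in p150DN 8-cell, 14.3 and 15% in blastocyst and 6.56, 6.33 and 8.86% in EGFP 8-cell libraries. On that measure the EGFP 8-cell libraries lay apart from the others. The pair itself averaged 466 FPKM there, against 384 in p150DN 8-cell and 382 in blastocyst libraries, so its level is also part of this gap.

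H2az1 (chr3:137864487-137866922), the main gene of the promoter variant H2A.Z, had 150, 148 and 132 FPKM in p150DN 8-cell, 176 and 174 FPKM in blastocyst and 105, 99.4 and 92.2 FPKM in EGFP 8-cell libraries. The groups did not overlap, and the p150DN libraries lay between the control stages. The mean was 143 ± 9.99 FPKM in p150DN embryos, against 98.9 ± 6.48 FPKM in EGFP 8-cell embryos (n = 3 each, SD), a log2 fold change of 0.53 ± 0.11 (95% interval 0.27 to 0.79; limma adjusted p = 0.00841). That is 0.34 above the median of all tested genes. The call held in 16 of 17 alternatives and was lost after median-of-ratios scaling (0.24, adjusted p = 0.271). Blastocysts were higher than EGFP 8-cell embryos by 0.82 ± 0.10 (adjusted p = 0.000431), in all 15 alternatives. p150DN embryos differed from blastocysts by -0.29 ± 0.13, which did not pass (adjusted p = 0.125). H2az2, the second H2A.Z gene, named after the values were seen, had 24.2, 34 and 34.9 FPKM in p150DN 8-cell, 21.4 and 23.3 FPKM in blastocyst and 30.1, 34.9 and 28.4 FPKM in EGFP 8-cell libraries, with p150DN and EGFP 8-cell libraries overlapping. Unlike H2az1, it was lower in blastocysts than in EGFP 8-cell embryos (log2 fold change -0.46 ± 0.13, limma adjusted p = 0.0192).

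H2ax (chr9:44334715-44336077), the variant phosphorylated at DNA breaks, had 175, 163 and 149 FPKM in p150DN 8-cell, 235 and 242 FPKM in blastocyst and 173, 137 and 197 FPKM in EGFP 8-cell libraries. The p150DN and EGFP 8-cell libraries overlapped, and both blastocyst libraries lay above all of them. Blastocysts were higher than EGFP 8-cell embryos by a log2 fold change of 0.51 ± 0.16 (95% interval 0.14 to 0.89; limma adjusted p = 0.0227). The call was lost after median-of-ratios scaling (0.29, adjusted p = 0.173), without a filter on low values (adjusted p = 0.0559), and without blastocyst replicate 1 (0.0747) or replicate 2 (0.0976). In p150DN against EGFP 8-cell embryos the log2 fold change was -0.05 ± 0.15 (95% interval -0.39 to 0.29; adjusted p = 0.836), with its sign turned by quantile normalization (0.03) and without p150DN replicate 3 (0.01) or EGFP 8-cell replicate 3 (0.07). Against blastocysts, H2ax was lower in p150DN embryos (log2 fold change -0.56 ± 0.13, adjusted p = 0.0226). That call was lost when either blastocyst library or p150DN replicate 3 (adjusted p = 0.0523) was left out. It was also lost without a filter on low values, in eBayes without a trend and with the replicate number as a block. H2az1 over H2ax stood at 0.855, 0.912 and 0.886 in p150DN 8-cell, 0.749 and 0.716 in blastocyst and 0.606, 0.728 and 0.469 in EGFP 8-cell libraries. The p150DN libraries lay above all others on this ratio, which needs no scaling between libraries.

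H1f0 (chr15:79028212-79030504), the linker histone gene of differentiated cells, had 12.9, 26.9 and 15.5 FPKM in p150DN 8-cell, 12.1 and 18.3 FPKM in blastocyst and 10.6, 11.9 and 8.31 FPKM in EGFP 8-cell libraries. All p150DN and blastocyst libraries lay above the EGFP 8-cell libraries, and p150DN replicate 2 stood alone at the top. The log2 fold change in p150DN embryos was 0.73 ± 0.26 (95% interval 0.14 to 1.32; limma adjusted p = 0.0571). It was 0.44 without p150DN replicate 2 (adjusted p = 0.119), 0.94 without p150DN replicate 1 (adjusted p = 0.0278) and 0.46 after median-of-ratios scaling (adjusted p = 0.171). In blastocysts the log2 fold change was 0.51 ± 0.22 (adjusted p = 0.0752), and it turned on which of the 2 blastocyst libraries was kept: 0.79 without replicate 1 (adjusted p = 0.0321) and 0.23 without replicate 2 (adjusted p = 0.455). It was 0.30 after median-of-ratios scaling (adjusted p = 0.256) and 0.22 under quantile normalization (adjusted p = 0.407).

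H1f8 (chr6:115944931-115950242), the oocyte linker histone gene, had 5.41, 10.8 and 8.66 FPKM in p150DN 8-cell, 1.96 and 1.88 FPKM in blastocyst and 13.7, 14.2 and 11.1 FPKM in EGFP 8-cell libraries. The 3 groups did not overlap, with p150DN between the control stages. In blastocysts the mean was 1.92 ± 0.0539 FPKM (SD, n = 2), against 13 ± 1.7 FPKM in EGFP 8-cell embryos (SD, n = 3), a log2 fold change of -2.26 ± 0.17 (limma adjusted p = 6.25e-05) that kept its call in all 15 alternatives. Relative to EGFP 8-cell embryos, p150DN embryos were at -0.63 ± 0.23 (95% interval -1.16 to -0.10), which missed the threshold (adjusted p = 0.0659). That value passed after median-of-ratios scaling (-0.90, adjusted p = 0.0103), under quantile normalization (-0.87, adjusted p = 0.0189) and without p150DN replicate 2 (-0.82, adjusted p = 0.0261). It was smaller without p150DN replicate 1 (-0.39, adjusted p = 0.153), and over all single left-out libraries the adjusted p ran between 0.0261 and 0.171. Against blastocysts, p150DN embryos were higher by 1.62 ± 0.28 (adjusted p = 0.01), a call lost without blastocyst replicate 1 (adjusted p = 0.0636) or 2 (0.077). H1f0 over H1f8 was 2.38, 2.5 and 1.79 in p150DN 8-cell, 6.18 and 9.74 in blastocyst and 0.77, 0.837 and 0.751 in EGFP 8-cell libraries, with no overlap between the groups on this ratio, chosen after the values were seen. Both were small parts of the linker histone pool. H1f0 made up 0.626, 1.61 and 1.13% of the FPKM of 9 linker histone genes in p150DN 8-cell, 0.446 and 0.626% in blastocyst and 0.352, 0.474 and 0.28% in EGFP 8-cell libraries. H1f8 made up 0.263, 0.646 and 0.632% in p150DN 8-cell, 0.0722 and 0.0643% in blastocyst and 0.457, 0.566 and 0.373% in EGFP 8-cell libraries. As a share of the pool, H1f8 overlapped between p150DN and EGFP 8-cell libraries, and its mean was 0.514 ± 0.217% in p150DN embryos, against 0.465 ± 0.0969% in EGFP 8-cell embryos (SD, n = 3 each), the opposite direction to its FPKM. The pool itself summed to 2058, 1666 and 1370 FPKM in p150DN 8-cell, 2710 and 2926 FPKM in blastocyst and 3000, 2515 and 2968 FPKM in EGFP 8-cell libraries, so that every p150DN library lay below every control library.

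The marker genes of trophectoderm and inner cell mass differed between the groups: in p150DN libraries the trophectoderm sum lay between those of the control stages, and the inner cell mass sum overlapped the EGFP 8-cell libraries. Their part in the values of H2az1, Cenpa, H1f0 and H1f8 was not tested. Oocyte transcripts were listed beside H1f8. Against EGFP 8-cell embryos, 9.68% of all tested genes were lower in p150DN embryos and 24.9% in blastocysts. Of 16 genes, 6 were lower in p150DN than in EGFP 8-cell embryos and 10 did not pass (median log2 fold change -0.47, against 0.19 over all tested genes), with 4 to 7 called when 1 library was left out and 10 with p150DN replicates 2 and 3 left out together. Btg4, an adaptor of maternal mRNA decay, was at 7.01 ± 2.22 FPKM in p150DN embryos, against 23.8 ± 1.52 FPKM in EGFP 8-cell embryos (n = 3 each, SD; -1.66 ± 0.20, limma adjusted p = 0.000747). Npm2, the oocyte histone chaperone nucleoplasmin, was lower too (9.19 ± 2.48 FPKM in p150DN, against 24.7 ± 1.8 FPKM in EGFP 8-cell embryos, log2 fold change -1.36 ± 0.20, adjusted p = 0.00171). In blastocysts 15 of the 16 were lower, among them Btg4 (-3.42 ± 0.17), Npm2 (-3.19 ± 0.18), the zona pellucida gene Zp3 (-2.90 ± 0.17) and the oocyte growth factor gene Gdf9 (-2.66 ± 0.14), and 1, Ooep, named after its values were seen, was higher (1.66 ± 0.27). The share of oocyte message in H1f8 was not tested.

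Of all tested genes, 24.6% were higher and 9.68% lower in p150DN than in EGFP 8-cell embryos. In blastocysts 42.6% were higher and 24.9% lower. Other histone variant genes differed among themselves. Of 12 listed, 11 were in the table and 8 tested: 4 were higher and 1 lower in p150DN than in EGFP 8-cell embryos and 3 did not pass (median 0.56). Macroh2a1, the H2A variant with a macro domain that is found on silent chromatin, had 23.1, 10.8 and 39.8 FPKM in p150DN 8-cell, 76.6 and 74.3 FPKM in blastocyst and 4.33, 6.12 and 7.13 FPKM in EGFP 8-cell libraries. No group overlapped another. The log2 fold change was 1.75 ± 0.39 in p150DN embryos (limma adjusted p = 0.01) and 3.50 ± 0.19 in blastocysts (adjusted p = 2.62e-05), each against EGFP 8-cell embryos, and all alternatives kept both calls. H2aj, which encodes the replacement variant H2A.J, was at 50.6 ± 3.56 FPKM in p150DN embryos, against 30.8 ± 4.89 FPKM in EGFP 8-cell embryos (n = 3 each, SD; 0.71 ± 0.15, adjusted p = 0.00728), a call lost after median-of-ratios scaling (0.42, adjusted p = 0.0788). H3f4 (2.12 ± 0.46) and H2bu2 (2.11 ± 0.48) were also higher in p150DN embryos. With p150DN replicates 2 and 3 left out together, H3f4 was at 1.09 and lost its call, and H2bu2 did not reach the filter. H2bu2 had 3.19, 11.1 and 15.3 FPKM in p150DN 8-cell and 2.29, 0.856 and 0.672 FPKM in EGFP 8-cell libraries. The lower gene was H2ac1, which encodes the germline variant TH2A (96.1 ± 10.4 FPKM in p150DN, against 153 ± 20.2 FPKM in EGFP 8-cell embryos, log2 fold change -0.66 ± 0.14, adjusted p = 0.00775). In blastocysts 3 were higher and 3 lower, with H2ac1 at -1.04 ± 0.13 and H2bc1, the gene of its partner TH2B, at -1.12 ± 0.26, the last without a call when blastocyst replicate 1 was left out (adjusted p = 0.0535).

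Against EGFP 8-cell embryos, 9.68% of all tested genes were lower in p150DN embryos and 42.6% were higher in blastocysts. In the lists of replication-coupled linker histone genes and replication-dependent H3 genes, those that passed were lower in p150DN embryos. Of 6 linker histone genes 5 were lower than in EGFP 8-cell embryos and 1 did not pass (median log2 fold change -0.76). H1f1 was at 453 ± 67.2 FPKM in p150DN embryos, against 787 ± 68.5 FPKM in EGFP 8-cell embryos (n = 3 each, SD; -0.80 ± 0.14, limma adjusted p = 0.0033), and H1f5 at 205 ± 49.1 FPKM in p150DN, against 366 ± 29.2 FPKM in EGFP 8-cell embryos (-0.86 ± 0.17, adjusted p = 0.00554). The count of 5 fell to 2 without EGFP 8-cell replicate 1 and to 1 with p150DN replicates 2 and 3 left out together. Of the 12 replication-dependent H3 genes 4 were lower and 8 did not pass (median -0.60), with H3c1 at 44.2 ± 4.09 FPKM in p150DN embryos, against 77.5 ± 3.46 FPKM in EGFP 8-cell embryos (-0.80 ± 0.12, adjusted p = 0.00191). That count ran between 2, without EGFP 8-cell replicate 1, and 9 when 1 library was left out. These genes are near-identical copies, so the split of reads among them is uncertain. In blastocysts 1 linker gene, H1f6 (2.14 ± 0.43), and 3 H3 genes were higher than in EGFP 8-cell embryos (1 H3 gene without blastocyst replicate 1), and the other 5 and 9 did not pass.

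**Figure D4:**
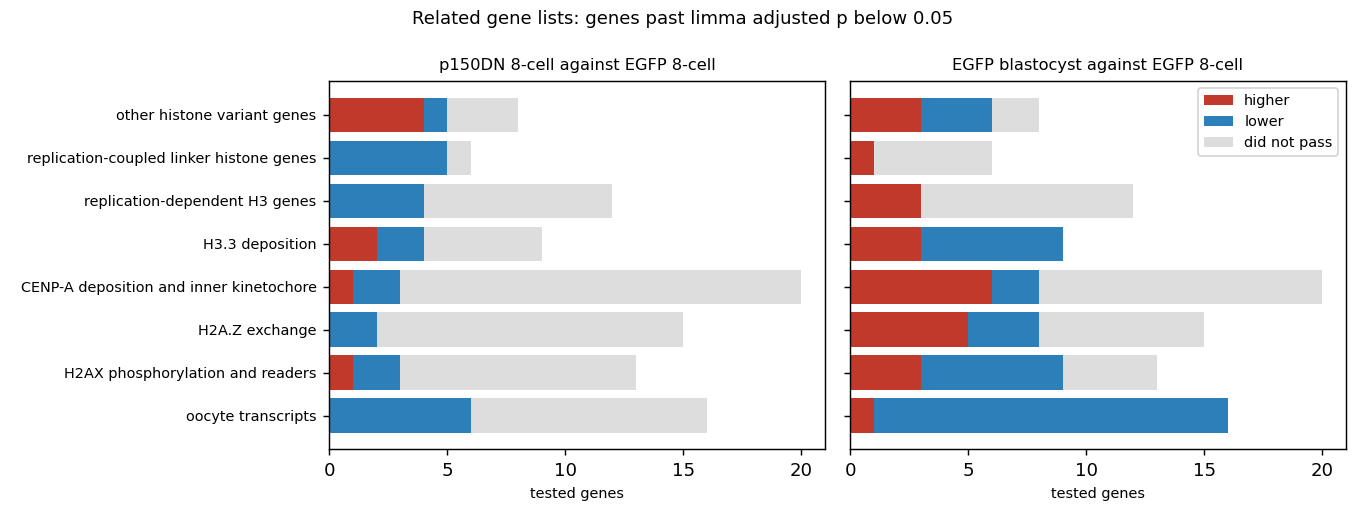
Number of tested genes (horizontal axis) of 8 related gene lists that were higher, lower or did not pass in p150DN 8-cell embryos (left) and EGFP blastocysts (right), each against EGFP 8-cell embryos. Of the oocyte transcripts, 6 of 16 were lower in p150DN embryos and 15 of 16 in blastocysts, against 9.68% and 24.9% of all tested genes.

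Genes that place or read these variants had calls in both directions. Against EGFP 8-cell embryos, 34.3% of all tested genes passed in p150DN embryos (24.6% higher, 9.68% lower). In blastocysts 67.5% passed (42.6% higher, 24.9% lower). Of 9 genes for H3.3 deposition, 2 were higher and 2 lower in p150DN than in EGFP 8-cell embryos and 5 did not pass (median -0.15), with 1 called without EGFP 8-cell replicate 1 and up to 5 without another library. Asf1a, a chaperone that hands H3-H4 to HIRA and to CAF-1, was at 30.6 ± 1.85 FPKM in p150DN embryos, against 14.4 ± 1.85 FPKM in EGFP 8-cell embryos (n = 3 each, SD; 1.04 ± 0.15, limma adjusted p = 0.00133). Ubn1, a subunit of the HIRA complex, was lower (14.6 ± 4.18 FPKM in p150DN, against 26.5 ± 3.42 FPKM in EGFP 8-cell embryos, -0.85 ± 0.22, adjusted p = 0.0171), a call lost without EGFP 8-cell replicate 1 (adjusted p = 0.052) or 2 (0.0584). In blastocysts all 9 passed, 3 higher and 6 lower, among them Asf1a (1.24 ± 0.17), Ubn1 (-1.29 ± 0.15) and Hira itself (18.2 ± 1.57 FPKM in blastocysts, against 31.4 ± 2.69 FPKM in EGFP 8-cell embryos, -0.75 ± 0.13, adjusted p = 0.00197).

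Of 20 genes for CENP-A deposition and the inner kinetochore, 1 was higher and 2 lower in p150DN than in EGFP 8-cell embryos and 17 did not pass (median 0.04). limma called 0 of them without p150DN replicate 3 (3 at an unadjusted p below 0.05), without EGFP 8-cell replicate 1 (5) or with p150DN replicates 2 and 3 left out together (3). In blastocysts 6 were higher and 2 lower (4 called without blastocyst replicate 2). Of all tested genes 34.3% passed in p150DN embryos and 67.5% in blastocysts, each against EGFP 8-cell embryos. Hjurp, the CENP-A chaperone, was at 14.9 ± 0.32 FPKM in p150DN embryos, against 12.3 ± 1.53 FPKM in EGFP 8-cell embryos (n = 3 each, SD) and did not pass there. It was higher in blastocysts (21.9 ± 0.653 FPKM, log2 fold change 0.79 ± 0.15, limma adjusted p = 0.00273), and lower in p150DN embryos than in blastocysts (-0.53 ± 0.14, adjusted p = 0.0352). That last call passed in 9 of 16 alternatives. It was lost under quantile normalization (adjusted p = 0.0584), with the replicate block (0.135) and without p150DN replicate 3 (0.0743) or either blastocyst library. In the last 3 of these kinds of setting the whole list had no call. Among 15 genes of H2A.Z exchange, 2 were lower in p150DN than in EGFP 8-cell embryos and 13 did not pass (5 called after median-of-ratios scaling, 1 without p150DN replicate 3 or EGFP 8-cell replicate 1), and 5 were higher and 3 lower in blastocysts. Actr5, a subunit of the INO80 remodeller, was at 14.7 ± 4.9 FPKM in p150DN embryos, against 33 ± 3.28 FPKM in EGFP 8-cell embryos (-1.15 ± 0.21, adjusted p = 0.00423), and at -2.57 ± 0.18 in blastocysts. Among 13 genes that phosphorylate, dephosphorylate or read H2A.X, 1 was higher and 2 lower in p150DN embryos (1 called without p150DN replicate 3 or EGFP 8-cell replicate 1, 7 after median-of-ratios scaling), and 3 were higher and 6 lower in blastocysts. The member of that list that rose was Ppm1d, a phosphatase of that mark, named after its values were seen, at 5.9 ± 0.972 FPKM in p150DN embryos, against 1.82 ± 0.93 FPKM in EGFP 8-cell embryos (1.33 ± 0.26, adjusted p = 0.00563).

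The genes whose log2 values followed each member most closely over the 8 libraries were sought among 7121 genes of at least 5 FPKM on average. Such a correlation describes 8 libraries in 3 groups and carries no test. For Cenpa they were Ptpn12 (r = 0.993), Ncoa5 (0.993) and the condensin gene Smc2 (0.991), and for H2az1 Chmp5 (0.988) and Heatr5a (0.987). H1f8 was followed by Pank3, Fbxw24 and Kdm4c, each with r of 0.996. H2ax was followed by Ankrd49 (0.983), Mpv17l2 (0.973) and Rfx1 (0.971). The likeness was lower for H3f3a (Prrc2a, 0.955), H3f3b (Rexo1, 0.957) and H1f0 (Dctn6, 0.963).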

How the data were processed

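The authors deposited FPKM values per the file headers, 1 column for each of the 8 RNA-seq libraries and 25220 gene symbols. The submitters' processing notes list HISAT2, Bowtie2, Trim Galore, SAMtools and featureCounts with neither version nor role, and the build mm10. The sources used here give no annotation, strand setting or rule for reads that match several places. Columns named for 8-cell embryos without p150DN were taken as EGFP 8-cell libraries, since the labels name no other such group.

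From these values, log2(FPKM + 1) was fitted with limma 3.58.1 (R 4.3.3; lmFit and trended eBayes, two-sided). Each fit held only the compared groups, and tested genes that reached 1 FPKM in 3 libraries (p150DN against EGFP 8-cell embryos) or in 2 libraries (comparisons with blastocysts). The log scale understates changes of low genes. A count test was not used because FPKM are not counts. Whole fragments behind the members were recovered from the FPKM of short genes, within a tolerance of 0.02 fragments, and their errors cover counting error only. FPKM fixes each library's total, so a change in RNA per embryo cannot be seen. Replicates differed by more than counting noise and each counted once. Coordinates came from a RefSeq table of GRCm38.p6, which matched 24920 symbols (98.8%).

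Members and the 8 gene lists were chosen with earlier results of these data known. Within a list the text draws mainly on up to 4 called genes per comparison whose mean is 5 FPKM or more, and not all of these are given. Ppm1d, which lies below that mean over the compared libraries, and Ooep were named after their values were seen. Alternatives were other pseudocounts, filters, scalings and variance settings, a fit of all 8 libraries, a replicate block and left-out libraries. The steps were tested on simulated data. One gene among those most like a member is not reported here.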

Additional observations from a re-analysis of the deposited data

How the results depend on the processing

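Of the member values under other settings, 295 kept their direction and side of the threshold, 18 came to pass it, 15 no longer passed and 8 changed sign. For p150DN against EGFP 8-cell embryos 2 members and 4023 genes were called, and 4 members and 4492 genes with all 8 libraries in 1 fit. Median-of-ratios scaling also gave 2 members, but these were H3f3b and H1f8, both lower, in place of Cenpa and H2az1. Leaving out 1 library at a time gave 2 to 4 called members and 2238 to 3553 called genes, and leaving out p150DN replicates 2 and 3 together gave 2314 genes. For blastocysts against EGFP 8-cell embryos 1 library less gave 3 to 5 members and 5459 to 8144 genes. For p150DN 8-cell embryos against blastocysts 1 library less gave 0 to 2 members and 323 to 4215 genes (limma; lowest without blastocyst replicate 2). There, no filter on low values gave 1555 genes and 1 member, and eBayes without a trend 1 member. The signs that turned belonged to values that did not pass: H3f3a after median-of-ratios scaling (-0.17) and H2ax under quantile normalization (0.03), without p150DN replicate 3 (0.01), without EGFP 8-cell replicate 3 (0.07) and without p150DN replicates 2 and 3 (0.07), all against EGFP 8-cell embryos, and H1f0 in p150DN embryos against blastocysts without p150DN replicate 2 (-0.07), without blastocyst replicate 1 (-0.06) and without p150DN replicates 2 and 3 (-0.20). Over all single left-out libraries the H2ax value ran between -0.19 and 0.07, and the H1f0 value between -0.07 and 0.50. The causes were not tested. Where 1 library remains in a group, its spread is taken from the other group.

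Whether replicate numbers pair the libraries is not known. Deviations of same-numbered p150DN and EGFP 8-cell libraries correlated at 0.06, 0.10 and 0.03, and those of unlike numbers at -0.12 to 0.08, which cannot decide it. With the replicate number as a block 4 members and 4081 genes were called for p150DN against EGFP 8-cell embryos, H3f3b (adjusted p = 0.0181) and H1f0 (0.0267) in addition, 5 members and 7861 genes for blastocysts against EGFP 8-cell embryos, and 1 member and 3072 genes for p150DN 8-cell embryos against blastocysts. H1f8 in blastocysts rests on as few as 43 fragments, with a counting error of up to 15.2%.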
